A study of Mus musculus with 12 samples.

Results

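The genes described here are the 70 histone and DNA modifying enzymes of the deposited expression table of thymic CD4+ T cells, out of 13207 genes in all. They were chosen by symbol, as every gene of the Kmt, Kdm, Setd, Ezh, Kat, Hdac, Sirt, Dnmt and Tet families. They comprise 20 histone methyltransferases and related SET domain proteins, 18 histone demethylases, 8 acetyltransferases, 18 deacetylases (11 of the Hdac families and 7 sirtuins) and 6 enzymes of DNA methylation. Each of the 70 was measured in all 12 libraries and passed the filter on low values, a log2 CPM (read counts scaled to a common library size, on a log2 scale) of at least 0 in at least 3 libraries.

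Chromatin enzymes add or remove small chemical groups on histone tails or on DNA. Acetyltransferases and H3K4 methyltransferases write marks found at active genes, H3K27 and H3K9 methyltransferases write marks of silent chromatin, and demethylases and deacetylases take these marks off. DNA methyltransferases (Dnmt) methylate CpG sites, and TET dioxygenases oxidise the methyl group as a step towards its removal. In regulatory T cells (Treg), which carry the transcription factor Foxp3 and restrain immune responses, loss of CpG methylation at the Foxp3 locus and at other Treg genes is known to accompany stable lineage identity, and several deacetylases are known to bind Foxp3 or to limit its acetylation.

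The libraries came from the thymus of C57BL/6 mice injected with tamoxifen 7 days earlier, at 10 μg per g of body weight, and each of the 4 sorted groups of CD4+ cells had 3 libraries, lettered A, B and D. The groups were tdTomato+GFP+CD73+ cells (CD73+ Treg), tdTomato+GFP+CD73- cells (CD73- Treg), tdTomato-GFP+ cells (tdTomato- Treg, not divided by CD73) and tdTomato+GFP-CD73- cells (Tconv, the newly generated conventional T cells). The tdTomato+ groups are thereby the ones marked after tamoxifen. The labels name neither the Cre driver of tdTomato nor the locus that carries GFP, give no age of the animals, and leave unsaid whether each library had its own animal. The p-values below therefore cover the spread from library to library, which may be technical. The authors deposited 2 tables that were scaled separately, 1 with the CD73+ and CD73- Treg and 1 with the tdTomato- Treg and Tconv, and tests were made within a table.

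Effective depths lay between 11000000 and 21400000 counts, so that 3 counts corresponded to a log2 CPM between −2.61 and −1.65. Lars2 alone took 16.1% to 32.4% of the CPM of a library. Foxp3 was at a log2 CPM of 9.07 to 9.25 in the 9 Treg libraries and at −0.77 to 0.88 in the 3 Tconv libraries, and Cd4 was at 8.33 to 9.42 in all 12. Among markers of other cells, the library CD73- Treg B was high in Rag1, at 4.75, and Cd8a, at 2.85, genes of less mature thymocytes. B cell, myeloid and thymic epithelial markers were low but not absent, at most 2.24 for Cd79b, 4.13 for Cst3 and 2.88 for Epcam.

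Between CD73+ and CD73- Treg the enzymes differed little. Hdac9, a class IIa deacetylase, was higher in CD73+ Treg, and no other member passed the threshold of an adjusted p under 0.05 (limma, Benjamini-Hochberg over all 11170 genes tested). That is 1 of 70 members (1.43%), against 2.47% of all genes tested, of which 1.78% were higher and 0.689% lower. None of the members was called lower. At an unadjusted p under 0.05, 4 of the 70 members were higher and 11 lower (21.4%). Of all 11170 genes, 1081 were higher and 837 lower at that p (17.2%), so the members leaned to lower values and all genes to higher ones. The authors' deposited table called 1 member higher and 0 lower at its own adjusted p. Apart from the authors' counts, these values come from a fit without a term for the letter. With the letter as a replicate block the H3K4 methyltransferase Kmt2c was also called, lower in CD73+ Treg (adjusted p = 0.047). Hdac9 kept its call in the blocked fit (adjusted p = 2.1e-04), which called 5.89% of all genes.

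Between tdTomato- Treg and Tconv, 11 members rose and 20 fell in tdTomato- Treg, and 39 did not pass the threshold. The members called were 44.3% of the 70, against 52.1% of the 11198 genes tested (26.4% higher and 25.7% lower). Groups did not overlap in 57.1% of the members, against 60.9% of all genes. The median size of a member's log2 fold change was 0.17, against 0.29 over all genes. The share of members called was therefore not above that of the table as a whole. Their median log2 fold change was −0.01, as was that of all genes. The highest fold changes were those of Hdac9, Kdm4d and Hdac10, and the lowest were those of the TET dioxygenase Tet1, the deacetylase Hdac5 and the methyltransferase Setdb2. Markers of other cells moved with this comparison. In tdTomato- Treg the B cell gene Cd79b, the myeloid genes Lyz2 and Cst3, the epithelial gene Epcam, the globins Hba-a2 and Hbb-bs, the NK cell gene Nkg7 and the double-positive thymocyte genes Rag1 and Arpp21 were higher than in Tconv, and Cd8b1 and Zbtb16 were lower. The summed log2 CPM of the B cell list was 2.41 to 2.70 in tdTomato- Treg and 0.15 to 0.87 in Tconv, that of the myeloid list was 4.58 to 5.01 in tdTomato- Treg and 3.84 to 3.99 in Tconv, and the part of these markers in the results was not tested. These 2 groups differed in lineage, in the time stamp and in the CD73 gate, which cannot be told apart here, and in bulk RNA a smaller number of cells and less RNA per cell cannot be told apart either.

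**Figure D1:**
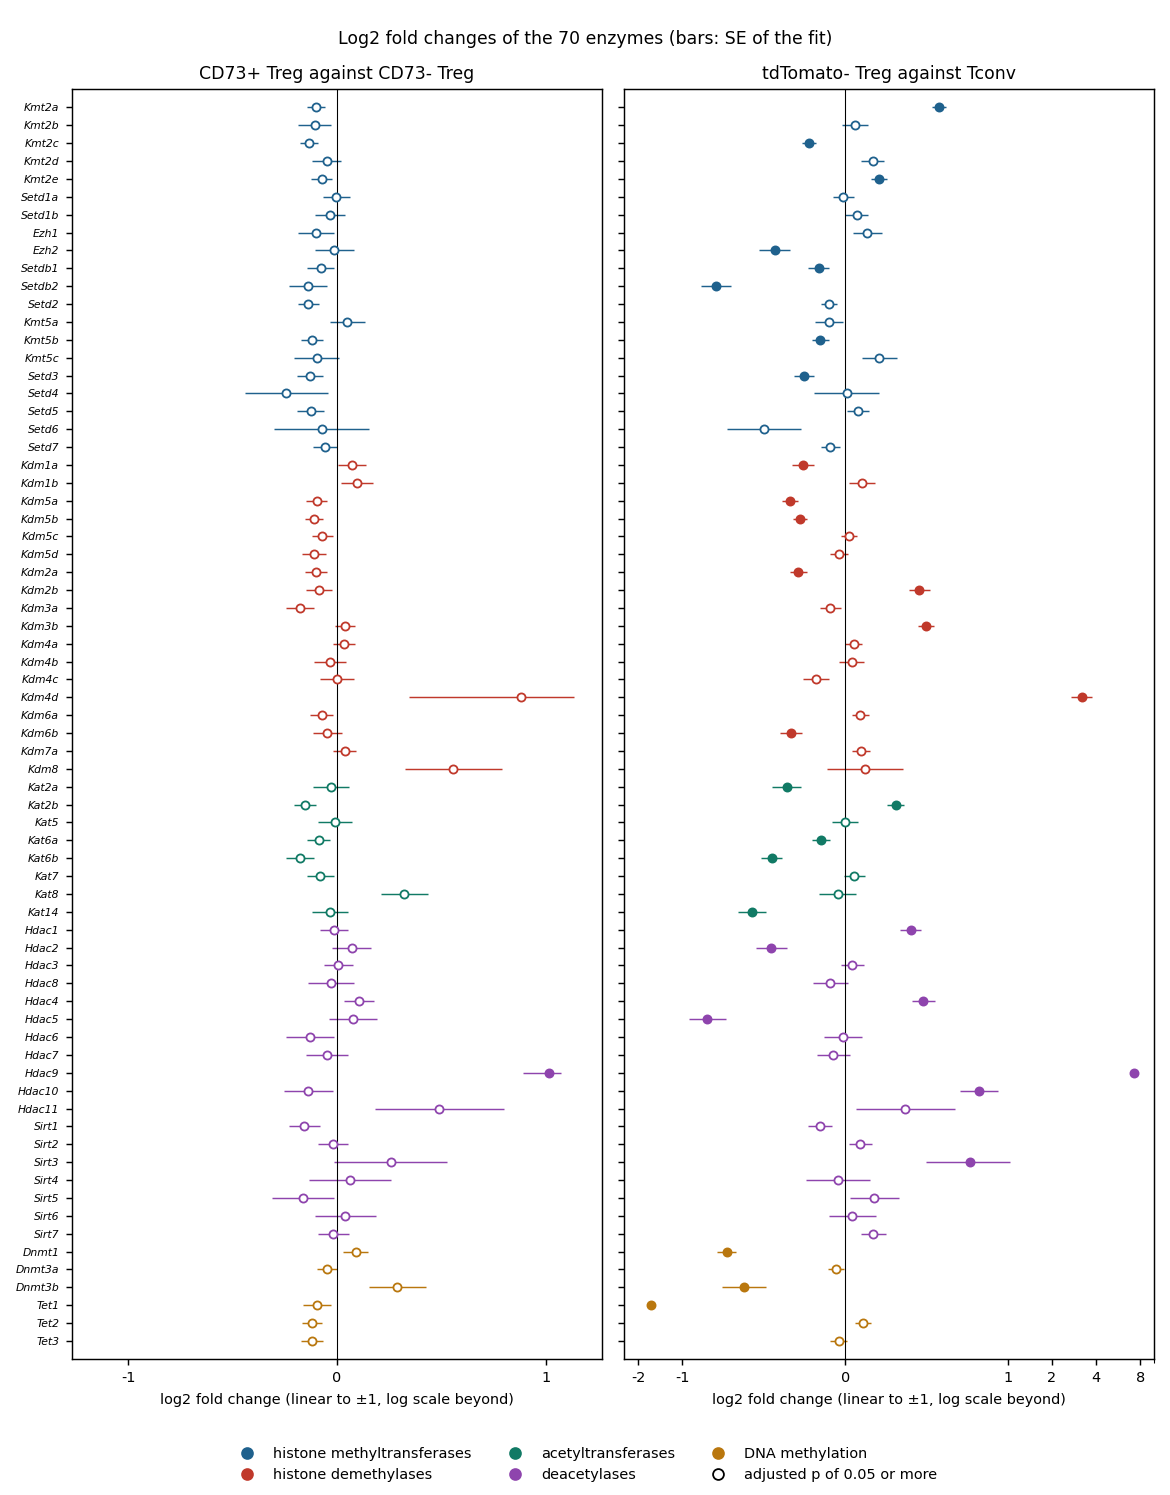
Log2 fold changes of the 70 enzymes, in CD73+ against CD73- Treg (left) and in tdTomato- Treg against Tconv (right), with bars for the SE of the fit, colours for the kind of enzyme and open circles where the adjusted p was 0.05 or more; the axis is linear to ±1 and logarithmic beyond. On the left, Hdac9 at 1.05 is the single filled point, while on the right 31 points are filled and run from −1.63 for Tet1 to 7.23 for Hdac9.

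Hdac9 encodes a class IIa histone deacetylase, an enzyme that shuttles between nucleus and cytoplasm and, with corepressors, holds back transcription by factors such as MEF2; mice that lack it are known to have more potent Treg. Its log2 CPM was 4.21, 4.69 and 4.33 in CD73+ Treg, against 3.25, 3.47 and 3.37 in CD73- Treg. All 3 CD73+ libraries lay above all 3 CD73- libraries (log2 fold change of 1.05 with SE 0.15, adjusted p = 0.0015), a 2.07-fold difference. In the second table it was 6.20, 6.13 and 6.30 in tdTomato- Treg, against −1.22, −0.77 and −1.08 in Tconv. It was thus abundant in each of the tdTomato- Treg libraries and near the limit of detection in Tconv, where the values stand for about 7, 12.1 and 8 counts (log2 fold change of 7.23 with SE 0.15, adjusted p = 5.4e-16). The size of that difference depends on the offset added before taking logs, and with log2(CPM + 1) it was 5.65. Of the 11167 genes tested in both comparisons, which share no library, 229 were called in both, 201 of them with the same sign. Hdac9 was the single member among these, 1 of 70, and was higher in CD73+ Treg and in tdTomato- Treg. Without the 4 libraries of letter D, its difference between CD73+ and CD73- Treg was 1.09 with an adjusted p of 0.055; in the other 15 alternatives run, it kept its call.

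The Hdac9 gene lies on the minus strand of chromosome 12 (chr12:34047580-34917095, GRCm38), and RefSeq (GRCm38.p6) gives it starts in 2 places in the promoter table. The 250 bases before each start are shown, 5′ to 3′ on the minus strand and with CG dinucleotides in capitals, because Hdac9 is the member on which the comparison of CD73+ with CD73- Treg turned.
Hdac9 start at the gene's 5′ end, chr12:34917096-34917345: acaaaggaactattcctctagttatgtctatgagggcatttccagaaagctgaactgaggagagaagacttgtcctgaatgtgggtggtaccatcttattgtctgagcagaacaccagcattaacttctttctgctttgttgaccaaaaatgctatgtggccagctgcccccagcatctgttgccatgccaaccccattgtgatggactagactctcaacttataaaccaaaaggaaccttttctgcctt
Hdac9 internal start, chr12:34528890-34529139: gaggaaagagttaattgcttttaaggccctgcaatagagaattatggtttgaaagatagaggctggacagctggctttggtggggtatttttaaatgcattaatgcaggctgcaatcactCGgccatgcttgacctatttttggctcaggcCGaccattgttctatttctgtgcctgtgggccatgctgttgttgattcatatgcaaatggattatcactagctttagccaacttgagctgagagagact
The window at the 5′ end held 0 CG dinucleotides and the internal one held 2, where the median over 32851 RefSeq promoters was 6. Windows with 0 CG made up 7.87% of these promoters and windows with 2 or fewer 29.0%. Neither window held, on either strand, the forkhead letters GTAAACA (found in 3.17% of the promoters), the AP-1 letters TGACTCA (4.46%), the Runx letters TGTGGTT (4.40%) or the ETS letters CCGGAAG (6.91%); none of these motifs contains another. The counts do not say which start was used in these cells.

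The other class II and class IV deacetylases moved in different directions between tdTomato- Treg and Tconv. Of the 7 genes of these classes, Hdac9, Hdac10 and Hdac4 rose, Hdac5 fell, and Hdac6, Hdac7 and Hdac11 did not pass the threshold. Among all genes, 52.1% passed it. Hdac4, a class IIa relative of Hdac9, had a log2 CPM of 6.81, 6.81 and 6.84 in tdTomato- Treg, against 6.46, 6.20 and 6.36 in Tconv. Every tdTomato- Treg library was above every Tconv library (log2 fold change of 0.48 with SE 0.07, adjusted p = 2.4e-05). Hdac5, also class IIa, went the other way, with 4.36, 4.35 and 4.26 in tdTomato- Treg, against 5.24, 4.91 and 5.36 in Tconv. Its Tconv libraries spread over 0.45 log2 units and still lay wholly above the tdTomato- Treg libraries (log2 fold change of −0.85 with SE 0.11, adjusted p = 9.3e-06). Hdac10, a class IIb enzyme known as a polyamine deacetylase, was at 4.25, 4.29 and 4.22 in tdTomato- Treg, against 3.51, 3.21 and 3.57 in Tconv (log2 fold change of 0.82 with SE 0.12, adjusted p = 1.5e-05). Hdac7, the class IIa enzyme best known from thymocyte selection, had 7.16, 7.21 and 7.23 in tdTomato- Treg, against 7.36, 7.01 and 7.45 in Tconv, and its groups overlapped (log2 fold change of −0.07 with SE 0.10, adjusted p = 0.57). Hdac6, the tubulin deacetylase that also acts on Foxp3, was likewise overlapping, with 4.27, 4.44 and 4.31 in tdTomato- Treg, against 4.13, 4.49 and 4.44 in Tconv (log2 fold change of −0.01 with SE 0.12, adjusted p = 0.93).

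**Figure D2:**
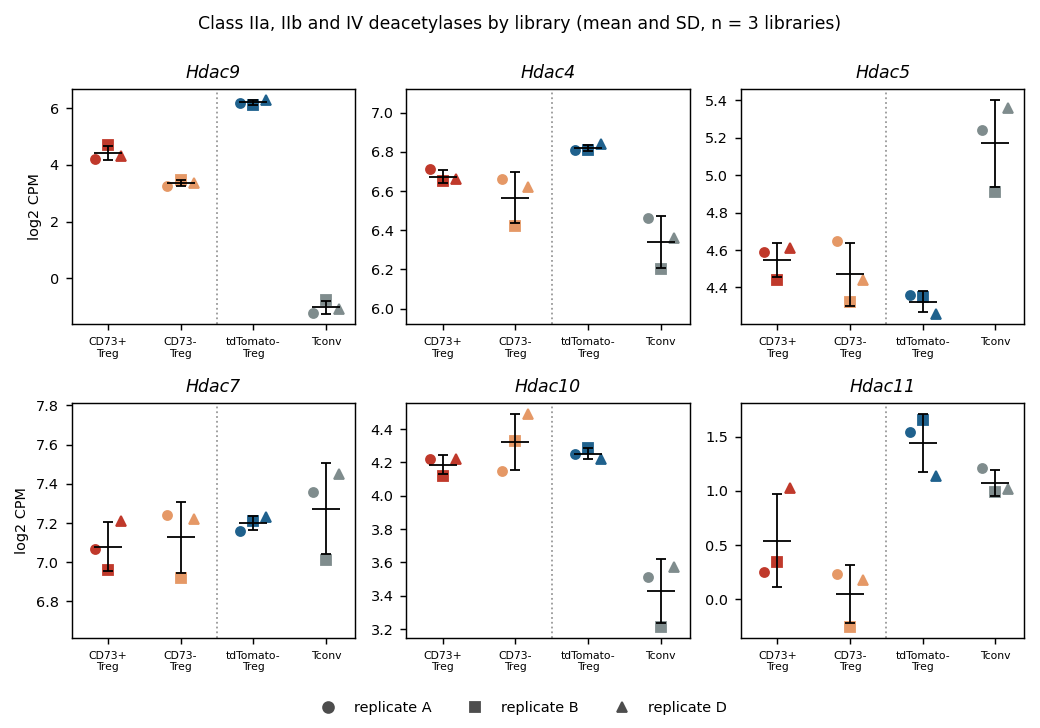
Log2 CPM of 6 class IIa, IIb and IV deacetylases in each library (symbols for replicates A, B and D), with the mean and SD of 3 libraries; the dotted line separates the 2 tables, which were scaled separately. Hdac9 lies between 6.13 and 6.30 in tdTomato- Treg and between −1.22 and −0.77 in Tconv, Hdac4 and Hdac10 are above Tconv in tdTomato- Treg, and Hdac5 is below it.

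Beside the Hdac9 values, the NK and innate-like markers Zbtb16 and Nkg7 were both higher in CD73+ Treg, where 1.78% of all genes were higher. They are the 2 tested of 4 listed. That list summed to a log2 CPM of 3.22 to 3.42 in CD73+ Treg and 0.93 to 2.09 in CD73- Treg. None of the 4 myeloid markers tested was called, but all 4 had log2 fold changes above 0, and their list summed to 4.35 to 4.61 in CD73+ Treg and 3.98 to 4.16 in CD73- Treg. The part of either list in the Hdac9 difference was not tested.

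None of the class II and IV relatives shared the difference of Hdac9 between CD73+ and CD73- Treg at the threshold. Hdac4 had 6.71, 6.65 and 6.66 in CD73+ Treg, against 6.66, 6.42 and 6.62 in CD73- Treg (0.11, adjusted p = 0.47). Hdac5 had 4.59, 4.44 and 4.61 in CD73+ Treg, against 4.65, 4.32 and 4.44 in CD73- Treg (0.08, adjusted p = 0.79). Hdac10, with the opposite sign, had 4.22, 4.12 and 4.22 in CD73+ Treg, against 4.15, 4.33 and 4.49 in CD73- Treg (−0.14, adjusted p = 0.59). Hdac6 had 4.38, 4.33 and 4.40 in CD73+ Treg, against 4.48, 4.31 and 4.71 in CD73- Treg (−0.13, adjusted p = 0.61). Hdac7 had 7.07, 6.96 and 7.21 in CD73+ Treg, against 7.24, 6.92 and 7.22 in CD73- Treg (−0.05, adjusted p = 0.86). In these 5 genes the ranges of the groups overlapped. Hdac11 was low in every library, at 0.25, 0.34 and 1.03 in CD73+ Treg, against 0.23, −0.26 and 0.18 in CD73- Treg; the groups did not overlap, but the difference was not called (log2 fold change of 0.49 with SE 0.31, adjusted p = 0.44).

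Of the 4 class I deacetylases, among which Hdac1, Hdac2 and Hdac3 are catalytic subunits of corepressor complexes such as Sin3, NuRD and NCoR, the closely related pair Hdac1 and Hdac2 moved in opposite directions between tdTomato- Treg and Tconv. Hdac1 had 6.85, 7.06 and 6.86 in tdTomato- Treg, against 6.50, 6.63 and 6.43 in Tconv (log2 fold change of 0.40 with SE 0.07, adjusted p = 6.8e-05). Hdac2 had 5.66, 5.62 and 5.67 in tdTomato- Treg, against 6.01, 6.28 and 6.02 in Tconv (log2 fold change of −0.45 with SE 0.09, adjusted p = 6.2e-04). In each gene the groups did not overlap, which held for 60.9% of all genes, and 52.1% of all genes were called. Hdac3, the NCoR subunit, was close to level, with 5.33, 5.23 and 5.23 in tdTomato- Treg, against 5.22, 5.25 and 5.19 in Tconv (log2 fold change of 0.04 with SE 0.07, adjusted p = 0.63), and Hdac8 was not called (−0.09, adjusted p = 0.52). Between CD73+ and CD73- Treg none of the 4 was called: Hdac1 was at 7.23, 7.23 and 7.32 in CD73+ Treg, against 7.29, 7.31 and 7.22 in CD73- Treg (−0.01, adjusted p = 0.94), and Hdac3 at 5.33, 5.43 and 5.31 in CD73+ Treg, against 5.43, 5.36 and 5.26 in CD73- Treg (0.01, adjusted p = 0.98).

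Of the 7 sirtuins, the NAD-dependent deacylases, Sirt3, a mitochondrial enzyme, was called between tdTomato- Treg and Tconv, with 1.92, 2.04 and 1.81 in tdTomato- Treg, against 1.21, 1.32 and 0.94 in Tconv (log2 fold change of 0.77 with SE 0.27, adjusted p = 0.025). Its call was lost without Tconv D (adjusted p = 0.087), tdTomato- Treg A (0.059), tdTomato- Treg B (0.079) or the 4 libraries of letter D (0.11), and with quantile normalisation (0.46, log2 fold change 0.25). Among all genes, 52.1% were called in this comparison, and in 60.9% the groups did not overlap. Sirt1, known to deacetylate Foxp3, had 5.43, 5.31 and 5.47 in tdTomato- Treg, against 5.51, 5.55 and 5.62 in Tconv, lower in every tdTomato- Treg library but not called (log2 fold change of −0.16 with SE 0.07, adjusted p = 0.085). Sirt1 was at 5.42, 5.28 and 5.24 in CD73+ Treg, against 5.44, 5.55 and 5.42 in CD73- Treg (−0.16, adjusted p = 0.29), where 5.42 was reached in both groups.

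Among the 6 enzymes of DNA methylation, 3 fell in tdTomato- Treg relative to Tconv, namely Tet1, Dnmt1 and Dnmt3b, and none rose. Of all genes tested, 25.7% fell and 26.4% rose. Tet1, a TET dioxygenase on the minus strand of chr10:62804570-62908996, had a log2 CPM of 5.98, 5.91 and 5.91 in tdTomato- Treg, against 7.58, 7.57 and 7.55 in Tconv. The 3 libraries of each group lay within 0.07 of each other, and the groups were far apart (log2 fold change of −1.63 with SE 0.07, adjusted p = 2.3e-12), with tdTomato- Treg at 0.322 times the level in Tconv. Tet2 and Tet3, the TET enzymes known to keep Treg loci unmethylated in mice, did not follow Tet1. Tet2 had 7.71, 7.73 and 7.81 in tdTomato- Treg, against 7.58, 7.66 and 7.68 in Tconv, a small difference without overlap that missed the threshold (log2 fold change of 0.11 with SE 0.05, adjusted p = 0.065). Tet2 passed it with the replicate block (adjusted p = 0.030) and with quantile normalisation (0.040). Tet3 had 9.13, 9.10 and 9.09 in tdTomato- Treg, against 9.24, 9.05 and 9.15 in Tconv, with overlapping groups (log2 fold change of −0.04 with SE 0.05, adjusted p = 0.55).

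Dnmt1, the maintenance methyltransferase that copies CpG methylation after replication (chr9:20907209-20959888, minus strand), had 6.64, 6.70 and 6.66 in tdTomato- Treg, against 7.30, 7.49 and 7.39 in Tconv. All Tconv libraries were above all tdTomato- Treg libraries (log2 fold change of −0.73 with SE 0.06, adjusted p = 2.0e-08). Dnmt3b, a de novo methyltransferase, was low in both groups, with 2.91, 2.89 and 2.90 in tdTomato- Treg, against 3.57, 3.49 and 3.50 in Tconv (log2 fold change of −0.62 with SE 0.14, adjusted p = 0.0011), while the de novo enzyme Dnmt3a, with 7.90, 7.89 and 7.88 in tdTomato- Treg, against 7.88, 8.02 and 7.94 in Tconv, was not called (log2 fold change of −0.06 with SE 0.05, adjusted p = 0.34). Cell cycle genes moved with these values. Of a list of 20, 17 were lower and 1, Tk1, was higher in tdTomato- Treg (90% called, against 52.1% of all genes). The summed log2 CPM of the list was 9.21 to 9.27 in tdTomato- Treg and 9.99 to 10.19 in Tconv. The part of cell division in the levels of Dnmt1, Dnmt3b, Ezh2 or the other members was not tested.

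**Figure D3:**
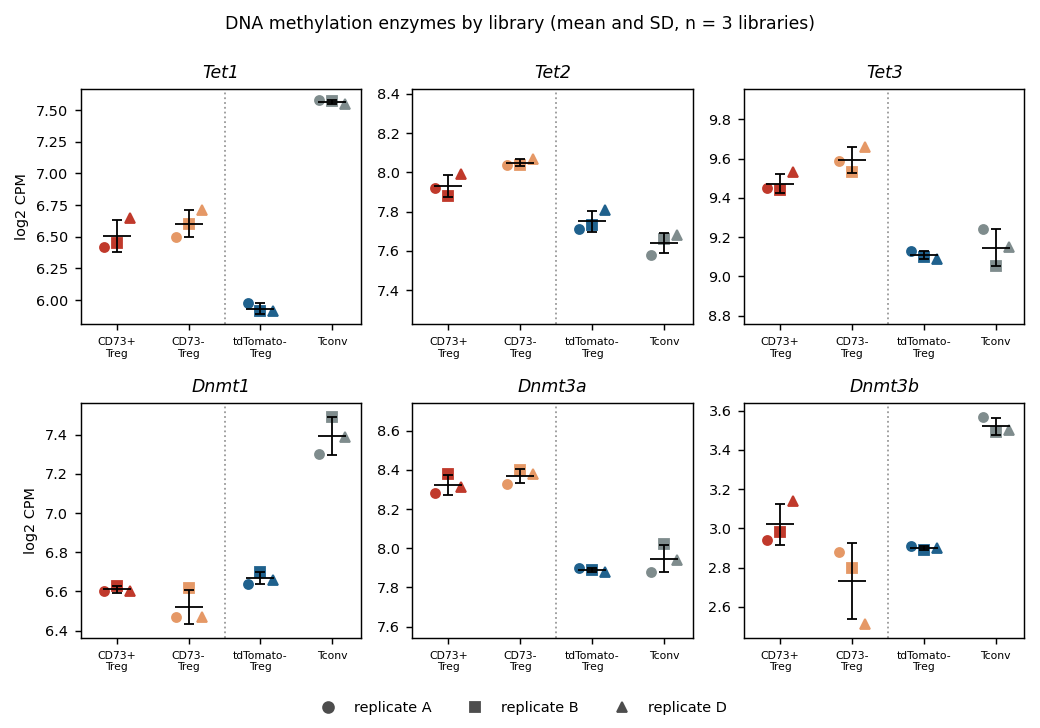
Log2 CPM of the 3 TET dioxygenases (top) and 3 DNA methyltransferases (bottom) in each library, with the mean and SD of 3 libraries; the dotted line separates the 2 separately scaled tables. Tet1 lies at 5.91 to 5.98 in tdTomato- Treg and at 7.55 to 7.58 in Tconv, and Dnmt1 and Dnmt3b are also lower in tdTomato- Treg, whereas Tet3 and Dnmt3a overlap.

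Between CD73+ and CD73- Treg no enzyme of DNA methylation was called. Tet1, the member that fell furthest in the other comparison, had 6.42, 6.45 and 6.65 in CD73+ Treg, against 6.50, 6.60 and 6.71 in CD73- Treg, and its groups overlapped (−0.10, adjusted p = 0.49). Dnmt1 had 6.60, 6.63 and 6.60 in CD73+ Treg, against 6.47, 6.62 and 6.47 in CD73- Treg (0.09, adjusted p = 0.46). Dnmt3a had 8.28, 8.38 and 8.31 in CD73+ Treg, against 8.33, 8.40 and 8.38 in CD73- Treg (−0.05, adjusted p = 0.66), and Tet3 had 9.45, 9.44 and 9.53 in CD73+ Treg, against 9.59, 9.53 and 9.66 in CD73- Treg (−0.12, adjusted p = 0.25). The groups overlapped or touched in these genes. Within each letter Tet1, Tet3 and Dnmt3a were lower and Dnmt1 was higher in CD73+ Treg, and none was called with the replicate block. In Tet2 and Dnmt3b they did not: Tet2 had 7.92, 7.88 and 7.99 in CD73+ Treg, against 8.04, 8.04 and 8.07 in CD73- Treg (−0.12, adjusted p = 0.21), and Dnmt3b had 2.94, 2.98 and 3.14 in CD73+ Treg, against 2.88, 2.80 and 2.51 in CD73- Treg (0.29, adjusted p = 0.29). Over all 70 members the groups did not overlap in 12 (17.1%), against 18.2% of all genes: 5 were higher in CD73+ Treg, where the share of all genes was 10%, and 7 were lower, where it was 8.18%.

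Of the 20 histone methyltransferases, 2 rose and 6 fell in tdTomato- Treg relative to Tconv, where 26.4% of all genes rose and 25.7% fell. Both methyltransferases that rose belong to the Kmt2 (MLL) family, most of whose members methylate H3K4 at promoters and enhancers. Kmt2a (MLL1, chr9:44803355-44881296, minus strand) had 10.04, 10.04 and 10.08 in tdTomato- Treg, against 9.48, 9.48 and 9.47 in Tconv, with every tdTomato- Treg library about 0.6 above every Tconv library (log2 fold change of 0.58 with SE 0.04, adjusted p = 1.1e-08). Kmt2e (MLL5), a member not known to methylate H3K4 itself, had 8.66, 8.62 and 8.77 in tdTomato- Treg, against 8.44, 8.52 and 8.46 in Tconv, a smaller step without overlap (log2 fold change of 0.21 with SE 0.05, adjusted p = 0.0019). Kmt2c (MLL3), an enhancer enzyme, fell, with 9.21, 9.22 and 9.29 in tdTomato- Treg, against 9.45, 9.52 and 9.42 in Tconv (log2 fold change of −0.22 with SE 0.04, adjusted p = 4.0e-04), and its close relative Kmt2d (MLL4) missed the threshold in the other direction, with 10.27, 10.24 and 10.25 in tdTomato- Treg, against 10.14, 9.93 and 10.18 in Tconv (log2 fold change of 0.17 with SE 0.07, adjusted p = 0.051). Kmt2d lay close to the threshold and passed it in 8 of the 16 alternatives run, with adjusted p between 0.0042 (replicate block) and 0.050 (rescaled without Lars2), among them those without Tconv A (0.048) or Tconv D (0.026) and the authors' deposited table (0.025). Kmt2b (MLL2) overlapped, with 7.68, 7.75 and 7.77 in tdTomato- Treg, against 7.67, 7.55 and 7.79 in Tconv (log2 fold change of 0.06 with SE 0.08, adjusted p = 0.53). Setd1a and Setd1b were not called.

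Among the methyltransferases of silent chromatin, Setdb2, an H3K9 enzyme, fell furthest, with 4.58, 4.42 and 4.58 in tdTomato- Treg, against 5.25, 5.41 and 5.30 in Tconv (log2 fold change of −0.79 with SE 0.09, adjusted p = 1.5e-06). Ezh2, the catalytic subunit of Polycomb repressive complex 2 and known to be needed for the function of activated Treg, had 5.77, 5.69 and 5.71 in tdTomato- Treg, against 6.05, 6.34 and 6.08 in Tconv (log2 fold change of −0.43 with SE 0.09, adjusted p = 1.0e-03). Its paralogue Ezh1 did not pass the threshold and had a positive sign (log2 fold change of 0.14 with SE 0.09, adjusted p = 0.21). For Setdb2 and Ezh2 all Tconv libraries lay above all tdTomato- Treg libraries. Setdb1, the main H3K9 trimethylase of this set, had 6.15, 6.18 and 6.31 in tdTomato- Treg, against 6.33, 6.39 and 6.41 in Tconv (log2 fold change of −0.16 with SE 0.06, adjusted p = 0.043), and its call was lost without Tconv B (adjusted p = 0.085), Tconv D (0.12), tdTomato- Treg A (0.16), tdTomato- Treg B (0.12) or the 4 libraries of letter D (0.062). Kmt5b, an H4K20 methyltransferase, was called at −0.15, adjusted p = 0.023, and not without Tconv B (0.051) or tdTomato- Treg B (0.12). Setd2, the H3K36 trimethylase, was not called, with 8.35, 8.38 and 8.43 in tdTomato- Treg, against 8.42, 8.56 and 8.48 in Tconv (log2 fold change of −0.10 with SE 0.05, adjusted p = 0.1). Setd2 passed the threshold with the replicate block (adjusted p = 0.044) and with median centring (0.043). Setd3, an actin histidine methyltransferase, fell (−0.25, adjusted p = 0.0027).

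**Figure D4:**
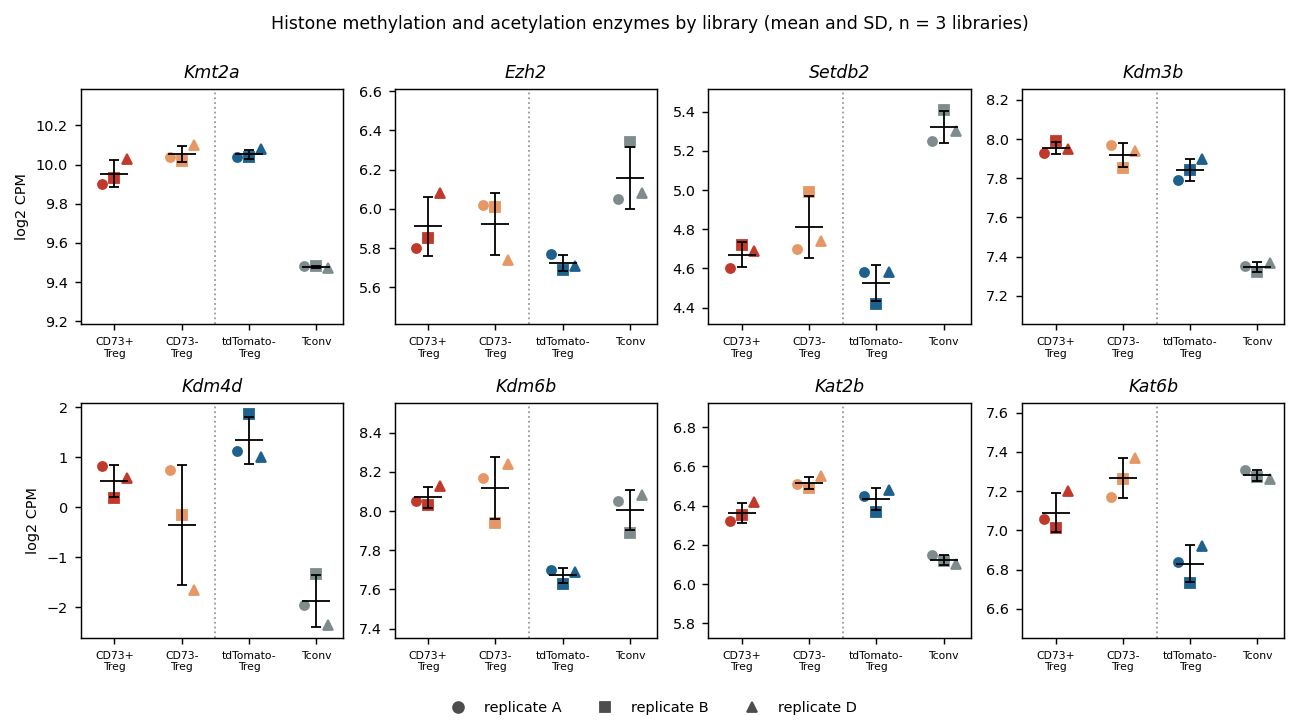
Log2 CPM of 8 enzymes of histone methylation and acetylation in each library, with the mean and SD of 3 libraries; the dotted line separates the 2 separately scaled tables. Relative to Tconv, tdTomato- Treg are higher in Kmt2a, Kdm3b, Kdm4d and Kat2b and lower in Ezh2, Setdb2, Kdm6b and Kat6b, and the Kdm4d values in Tconv, −2.36 to −1.33, come from few reads.

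In CD73+ Treg the histone methyltransferases had small log2 fold changes of mostly negative sign relative to CD73- Treg: 19 of 20 were below 0, with a median of −0.10 and a range from −0.24 to 0.05, where 48.7% of all genes were below 0. None passed the threshold in the fit without a block. The count below 0 was 19 with median centring (52.7% of all genes), 16 with quantile normalisation (51.5% of all genes) and 17 when CPM were rescaled without Lars2 (44.2% of all genes). Compared letter by letter, 10 of the 20 were lower in CD73+ Treg in each of the 3 letters and 0 were higher in each, where 19.5% of all genes were lower and 20.4% higher in each letter. Of the other kinds, 7 of 8 acetyltransferases, 11 of 18 demethylases, 9 of 18 deacetylases and 4 of 6 enzymes of DNA methylation were below 0. Over all 70 members, these methyltransferases included, 50 were below 0. The lean did not hold for the 19 further histone methyltransferases under other names. Of these, 8 were below 0 and 11 above, with a median of 0.10. Kmt2c had 9.35, 9.39 and 9.43 in CD73+ Treg, against 9.51, 9.52 and 9.54 in CD73- Treg, with groups that did not overlap (log2 fold change of −0.13 with SE 0.04, adjusted p = 0.13, and 0.047 with the replicate block). Setd2 had 8.45, 8.49 and 8.48 in CD73+ Treg, against 8.56, 8.69 and 8.58 in CD73- Treg, again without overlap (log2 fold change of −0.14 with SE 0.05, adjusted p = 0.16). Kmt2b, Kmt2d, Ezh2 and Setdb1 overlapped between the groups. Kmt2b had 7.72, 7.56 and 7.85 in CD73+ Treg, against 7.79, 7.69 and 7.97 in CD73- Treg, lower in CD73+ Treg in every letter (−0.11, adjusted p = 0.52, and 0.23 with the replicate block). Kmt2d had 10.10, 10.08 and 10.22 in CD73+ Treg, against 10.24, 10.03 and 10.28 in CD73- Treg (−0.05, adjusted p = 0.77). Ezh2 had 5.80, 5.85 and 6.08 in CD73+ Treg, against 6.02, 6.01 and 5.74 in CD73- Treg (−0.01, adjusted p = 0.96), and Setdb1 had 6.21, 6.31 and 6.34 in CD73+ Treg, against 6.35, 6.28 and 6.46 in CD73- Treg (−0.08, adjusted p = 0.59). Beside this, the double-positive thymocyte markers summed to a log2 CPM of 4.44 to 4.77 in CD73+ Treg and 4.89 to 6.21 in CD73- Treg, with 1 of 5 tested, Aqp11, called lower in CD73+ Treg, and their part in the signs was not tested.

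Of the 18 histone demethylases, 3 rose and 5 fell in tdTomato- Treg relative to Tconv, where 26.4% of all genes rose and 25.7% fell. The risers were Kdm3b, Kdm2b and Kdm4d. Kdm3b, an H3K9 demethylase, had 7.79, 7.84 and 7.90 in tdTomato- Treg, against 7.35, 7.32 and 7.37 in Tconv (log2 fold change of 0.50 with SE 0.05, adjusted p = 1.7e-07). Kdm2b, which binds unmethylated CpG islands and recruits a variant Polycomb complex 1, had 6.70, 6.81 and 6.87 in tdTomato- Treg, against 6.28, 6.33 and 6.40 in Tconv (log2 fold change of 0.46 with SE 0.06, adjusted p = 1.2e-05). Kdm4d, an H3K9 demethylase known mainly from the testis, was low everywhere, with 1.12, 1.87 and 1.01 in tdTomato- Treg, against −1.96, −1.33 and −2.36 in Tconv. The Tconv values stand for about 4, 8 and 3 counts, so the fitted difference (log2 fold change of 3.22 with SE 0.53, adjusted p = 8.2e-05) depends on the offset; it was 1.47 with log2(CPM + 1) and 2.47 with quantile normalisation. In CD73+ Treg it was 0.82, 0.18 and 0.58, against 0.74, −0.16 and −1.65 in CD73- Treg, with overlap (0.88, adjusted p = 0.42).

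The demethylases that fell included 2 of the 4 Kdm5 enzymes, which remove H3K4 methylation. Kdm5a had 7.94, 7.87 and 8.05 in tdTomato- Treg, against 8.27, 8.34 and 8.26 in Tconv (log2 fold change of −0.34 with SE 0.05, adjusted p = 2.7e-05). Kdm5b fell by 0.28 (SE 0.04), Kdm2a by 0.29 (SE 0.05) and Kdm1a (LSD1) by 0.26 (SE 0.07) on the log2 scale, each past the threshold. The H3K27 demethylases Kdm6a and Kdm6b differed from each other. Kdm6b (JMJD3) had 7.70, 7.63 and 7.69 in tdTomato- Treg, against 8.05, 7.89 and 8.08 in Tconv, without overlap (log2 fold change of −0.33 with SE 0.07, adjusted p = 6.6e-04), and the X-linked Kdm6a (UTX) had 6.69, 6.62 and 6.76 in tdTomato- Treg, against 6.58, 6.60 and 6.61 in Tconv, a difference in the other direction that was not called (log2 fold change of 0.09 with SE 0.05, adjusted p = 0.16). Between CD73+ and CD73- Treg, Kdm6b had 8.05, 8.03 and 8.13 in CD73+ Treg, against 8.17, 7.94 and 8.24 in CD73- Treg (−0.05, adjusted p = 0.79), with overlapping groups. Kdm6a had 6.75, 6.69 and 6.83 in CD73+ Treg, against 6.84, 6.82 and 6.83 in CD73- Treg (−0.07, adjusted p = 0.52), where 6.83 was reached in both groups. Of the sex-linked members, the Y-linked Kdm5d was at 6.70 to 6.99 in all 12 libraries, as the Y-linked Ddx3y (6.56 to 7.00) and Uty (6.05 to 6.47) were, and the X-linked Kdm5c at 7.01 to 7.27. Kdm5c and Kdm5d, and Kdm6a and Uty, are related X and Y copies between which the authors' counting could have split reads.

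Of the 8 acetyltransferases, Kat2b rose and Kat14, Kat6b, Kat2a and Kat6a fell in tdTomato- Treg relative to Tconv. Among all genes, 26.4% rose and 25.7% fell. The paralogues Kat2b (PCAF) and Kat2a (GCN5), which acetylate H3K9, moved in opposite directions. Kat2b had 6.45, 6.37 and 6.48 in tdTomato- Treg, against 6.15, 6.12 and 6.10 in Tconv (log2 fold change of 0.31 with SE 0.05, adjusted p = 1.4e-04). Kat2a had 5.07, 5.27 and 5.03 in tdTomato- Treg, against 5.58, 5.39 and 5.48 in Tconv (log2 fold change of −0.36 with SE 0.09, adjusted p = 0.0022). The groups of each gene did not overlap. Kat14, a subunit of the ATAC acetyltransferase complex, had 4.88, 5.01 and 4.93 in tdTomato- Treg, against 5.55, 5.54 and 5.44 in Tconv (log2 fold change of −0.57 with SE 0.09, adjusted p = 2.8e-05). Kat6b (MORF) had 6.84, 6.73 and 6.92 in tdTomato- Treg, against 7.31, 7.27 and 7.26 in Tconv (log2 fold change of −0.45 with SE 0.07, adjusted p = 2.0e-05). Its paralogue Kat6a (MOZ) was called with a small value (−0.15, adjusted p = 0.031) and lost the call without Tconv B (0.16), tdTomato- Treg A (0.083), tdTomato- Treg B (0.081) or the 4 libraries of letter D (0.055). Kat5 (TIP60), which acetylates Foxp3, had 4.66, 4.54 and 4.73 in tdTomato- Treg, against 4.65, 4.61 and 4.67 in Tconv and no difference in mean (log2 fold change of 0.00 with SE 0.08, adjusted p = 1).

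No acetyltransferase was called between CD73+ and CD73- Treg. Kat2b had 6.32, 6.35 and 6.42 in CD73+ Treg, against 6.51, 6.49 and 6.55 in CD73- Treg, lower in CD73+ Treg without overlap but not past the threshold (log2 fold change of −0.15 with SE 0.05, adjusted p = 0.15). Kat8 (MOF), which acetylates H4K16, had 4.39, 4.48 and 4.42 in CD73+ Treg, against 4.03, 4.10 and 4.19 in CD73- Treg, higher without overlap and likewise not called (log2 fold change of 0.32 with SE 0.11, adjusted p = 0.14). Kat5 had 4.86, 4.72 and 4.74 in CD73+ Treg, against 4.83, 4.73 and 4.79 in CD73- Treg (−0.01, adjusted p = 0.97), and Kat2a had 5.14, 5.27 and 5.01 in CD73+ Treg, against 5.20, 5.20 and 5.11 in CD73- Treg (−0.03, adjusted p = 0.9), both with overlap.

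Genes that work with these enzymes were counted from lists of their partners, drawn widely. The DNA methylation list also holds genes such as Apobec3, Idh2 and Gadd45b, which are not direct partners of the Dnmt or TET enzymes. In the DNA methylation list 7 of 14 rose and 4 fell in tdTomato- Treg relative to Tconv (78.6% called, against 52.1% of all genes tested). Uhrf1, which brings Dnmt1 to newly replicated DNA, fell as Dnmt1 did, at 4.28 in tdTomato- Treg, against 5.45 in Tconv (a log2 difference of −1.17 with SE 0.17, adjusted p = 2.0e-05), whereas its relative Uhrf2 rose, at 6.84 in tdTomato- Treg, against 6.41 in Tconv (a log2 difference of 0.43 with SE 0.06, adjusted p = 9.6e-06). The stress-response gene Gadd45b was at 4.41 in tdTomato- Treg, against 2.20 in Tconv (a log2 difference of 2.21 with SE 0.23, adjusted p = 5.3e-07). Apobec3, a cytidine deaminase that restricts retroviruses, was at 8.12 in tdTomato- Treg, against 6.19 in Tconv (a log2 difference of 1.93 with SE 0.05, adjusted p = 2.4e-15), and Idh2, the mitochondrial isocitrate dehydrogenase, fell (−1.19).

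Of 23 Polycomb partners of Ezh1 and Ezh2 or of the other Polycomb complex, 4 rose and 10 fell in tdTomato- Treg (60.9% called, against 52.1% of all genes tested). Cbx7, a reader of H3K27 methylation, was at 7.71 in tdTomato- Treg, against 6.14 in Tconv (a log2 difference of 1.57 with SE 0.10, adjusted p = 5.4e-10). Bmi1 (log2 fold change −0.58), Mtf2 (−0.57) and the core subunit Suz12 (−0.20) fell, and the core subunit Eed did not pass the threshold (−0.12). Of the partners of the H3K4 methyltransferases, 1 of 12 rose, the Setd1 subunit Wdr82 (0.55), and 6 fell (58.3% called), among them Wdr5 (−0.36) and Psip1, which ties Kmt2a to chromatin (−0.36). Of 19 corepressor partners of the deacetylases 4 rose and 5 fell (47.4% called), with Tbl1x, an NCoR subunit, at −0.75.

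Enzymes of the same kinds under other names were also counted. Of 19 further methyltransferases 6 rose and 4 fell in tdTomato- Treg (52.6% called), of 9 further acetyltransferases 2 rose and 3 fell (55.6%), and of 8 further demethylases 1, Jmjd1c, rose and 2 fell (37.5%), against 52.1% called among all genes. The arginine methyltransferase Prmt5 was at 4.45 in tdTomato- Treg, against 5.41 in Tconv (a log2 difference of −0.96 with SE 0.10, adjusted p = 5.6e-07), and the coactivator Ncoa3 at 9.10 in tdTomato- Treg, against 8.05 in Tconv (a log2 difference of 1.04 with SE 0.05, adjusted p = 8.0e-12). Between CD73+ and CD73- Treg a single partner gene was called, Mbd2, a reader of methylated DNA in the NuRD complex, at 6.71 in CD73+ Treg, against 6.50 in CD73- Treg (a log2 difference of 0.21 with SE 0.05, adjusted p = 0.05). That call was lost when any 1 of the 6 libraries was left out, with adjusted p between 0.060 and 0.19. With the replicate block Mbd2 kept its call, Wdr82 was also called higher, and Ash1l and Ogt lower. Of the 20 cell cycle genes 1, Tk1, was higher in CD73+ Treg (5% called, against 2.47% of all genes). With the replicate block 6 were higher, and 5.89% of all genes were called. The list summed to 9.0 to 9.27 in CD73+ Treg and 8.66 to 9.08 in CD73- Treg.

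The members not yet named, Kmt5a, Kmt5c, Setd4, Setd5, Setd6, Setd7, Kdm1b, Kdm3a, Kdm4a, Kdm4b, Kdm4c, Kdm7a, Kdm8, Kat7, Sirt2, Sirt4, Sirt5, Sirt6 and Sirt7, were called in neither comparison in the fit without a block. Their log2 fold changes ran from −0.24 (Setd4) to 0.56 (Kdm8) between CD73+ and CD73- Treg, and from −0.50 (Setd6) to 0.21 (Kmt5c) between tdTomato- Treg and Tconv. With the replicate block, Sirt7 (adjusted p = 0.031), Kdm4c (0.048) and Setd6 (0.049) were called between tdTomato- Treg and Tconv. Without Tconv D, Setd6 (0.0053), Sirt7 (0.034) and Kmt5c (0.034) were called there. Kdm8, a JmjC domain protein, was low, with 2.59, 2.52 and 2.24 in CD73+ Treg, against 2.03, 1.54 and 2.11 in CD73- Treg, higher in CD73+ Treg without overlap but not called (log2 fold change of 0.56 with SE 0.23, adjusted p = 0.23).

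The 2 comparisons share no library, and 40 of the 70 members had the same sign in both (57.1%), against 57.5% of all 11167 genes tested in both. Just outside the threshold between tdTomato- Treg and Tconv were Kmt2d, Tet2, Sirt7, Kdm4c, Setd6 and Sirt1, with adjusted p between 0.051 and 0.085. Of the called members, Hdac5, Kat14 and Kdm2b have exons that overlap another gene on the same strand in GENCODE M21, and Kmt2a, Kmt2c, Kmt2e, Kdm3b, Kdm5a, Kdm6b, Ezh2, Hdac4, Setdb1, Sirt3 and Kmt5b overlap one on the opposite strand only. Whether the counting used strand is not given in the sources used here, so a part of these reads may be assigned to either gene. Hdac9, Tet1, Dnmt1, Dnmt3b, Setdb2, Hdac10 and Kdm4d have no such overlap.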

How the data were processed

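Per the labels' protocols, TRIzol extraction was followed by KAPA RNA HyperPrep library construction. STAR, RSEM, limma and mm10 are named in the submitters' processing notes; versions are not given in the sources used here. A merged file deposited by the authors holds log2 values for 13207 genes from 2 tables, each with 6 libraries, and 12410 genes are in both. These log2 values are CPM with an offset of 0.5 counts, a unit read from the values themselves, and the tables were scaled separately. The authors also deposited log2 fold changes with their p-values and adjusted p-values.

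A single limma 3.58.1 model (R 4.3.3) with 4 group means and an intensity trend was fitted to the deposited log2 CPM of all 12 libraries. Genes had to reach a log2 CPM of 0 in 3 or more libraries. Tests were two-sided and p-values were adjusted over all genes tested in a comparison (Benjamini-Hochberg), with a threshold of 0.05. The fit was tested on simulated data. Of 6 possible comparisons between groups, the 2 within a table were run. Errors are SD over 3 libraries or SE of the fit. The limit of 3 counts allows for counting error alone; the labels mention no molecular identifiers.

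The members and the partner lists were chosen with earlier results of these data known. Named with every library's value are called members whose groups did not overlap, up to 12 per direction, and members with a known part in T cells. Deviations from group means of same-letter libraries correlated at 0.146 to 0.266 between CD73+ and CD73- Treg over 9942 genes. The letters of the sample titles may therefore pair these libraries. The main fit has no term for the letter, so its adjusted p-values ignore any pairing. A fit with the letter as a block was run as an alternative, and the members whose call it changed are named. Coordinates come from GENCODE M21 (GRCm38, the same build as mm10), and promoter sequences from RefSeq. A promoter was found for 58 members.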

Additional observations from a re-analysis of the deposited data

How the results depend on the processing

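Alternatives were a replicate block, no or a stricter filter on low values, log2(CPM + 1), quantile normalisation, median centring, rescaling without Lars2, a fit of the 2 groups compared, leaving out each library or all 4 of letter D, and the authors' deposited table. With the replicate block 1 member, Kmt2c, was lower in CD73+ Treg (0 without it), and without the 4 libraries of letter D 0 members were higher (1 with them). With 1 library left out, 1 member was higher and 0 were lower in CD73+ Treg each time, and 10 to 13 were higher and 17 to 21 lower in tdTomato- Treg than in Tconv. Over all genes the count called between CD73+ and CD73- Treg was 276, and 658 with the block, 146 with only the 2 groups, 41 without letter D and 100 to 369 with 1 library left out.

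Same-letter libraries of tdTomato- Treg and Tconv correlated at 0.0536 to 0.117. Libraries of different letters reached 0.0652, so these correlations do not settle whether the letters pair the libraries of this comparison. The replicate block gave 14 higher and 23 lower members there, adding Kmt2d, Tet2, Sirt7, Kdm4c, Setd6 and Setd2. It called 55.7% of all genes, against 52.1% without it. The authors' deposited table had 12 higher and 20 lower members. Of the 31 members called between tdTomato- Treg and Tconv in the main fit, 27 kept the call in all 16 alternatives. Sirt3, Setdb1, Kat6a and Kmt5b were the exceptions, and no called member changed sign. The scalings moved the median of all genes by at most 0.09. Among the members with the fewest counts, Kdm4d had 3 to 56 per library and Hdac11 had 12 to 48, so counting error is larger there than in abundant members.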
